A study of Mus musculus with 54 samples.

Results

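The proteasome genes of mouse kidney were followed through every workflow of a study that compared ways of preparing kidney for single-cell and single-nucleus RNA-seq. Members were the genes whose symbol begins with Psma, Psmb, Psmc, Psmd, Psme, Psmf or Psmg followed by a number, without the entries named as pseudogenes. This gave 50 of the 33126 genes listed in any library. Cell libraries and male nuclei listed 48 of them, female nuclei 47, and bulk libraries 49 or 50. The study profiled adult whole kidney in 54 libraries of 18 groups with 3 libraries each, of which 39 were 10x Genomics Chromium libraries and 15 were bulk RNA-seq libraries.

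In the first experiment, kidneys of 19-week-old male AFAPIL.1DEL C57BL/6J mice of 1 litter, not exposed to any earlier procedure, were dissociated on ice with a cold-active protease or warm with a commercial enzyme kit. Suspensions were profiled fresh, after cryopreservation (6 weeks in storage) or after methanol fixation (3 months), and the remaining cells were profiled in bulk. In the second, cold-dissociated cells, nuclei sorted after the 3x500g washing protocol (SN_FANS_3x500g) and bulk RNA of intact flash-frozen kidney came from untreated Balb/c males of 1 litter aged 18 weeks. In the third, wild type female Balb/c mice of 15 weeks that had served as breeders gave fresh and cryopreserved cold-dissociated cells (2 weeks in storage), nuclei from 3 protocols (SN_FANS_3x500g, SN_FANS_1x2000g and SN_sucrose), and bulk RNA of intact kidney and of the cold suspension. Groups compared with each other shared strain, sex and age. Cells came from fresh kidney and nuclei from flash-frozen kidney, so freezing and isolation cannot be told apart. Per the labels, chemistry v2 was used for the first and second experiments and v3 for the third. Male intact kidney was sequenced after rRNA depletion and female bulk RNA after poly(A) selection.

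The proteasome degrades proteins that carry a ubiquitin chain. Its 20S core is a barrel of outer rings of alpha subunits and inner rings of beta subunits, of which only Psmb5, Psmb6 and Psmb7 cut peptide bonds, and the 19S particle binds, unfolds and feeds the substrate. Interferon and immune cell identity bring in the alternative catalytic subunits Psmb8, Psmb9 and Psmb10, which replace Psmb5, Psmb6 and Psmb7 respectively and form the immunoproteasome, whose peptides are loaded on MHC class I. The activators Psme1 and Psme2 are induced by the same signals, and kidney tubule cells, with their high protein turnover, carry mostly the constitutive form.

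By role, the members were 8 alpha subunits (Psma1 to Psma8), 7 constitutive beta subunits (Psmb1 to Psmb7), 4 induced beta subunits (Psmb8 to Psmb11), 6 ATPases of the 19S base (Psmc1 to Psmc6), 11 other 19S subunits, 6 activators or inhibitors (Psme1, Psme2, Psme2b, Psme3, Psme4, Psmf1) and 7 assembly factors (Psmg1 to Psmg4, Psmd5, Psmd9, Psmd10). Psmc3ip matched by its symbol alone and is a recombination factor. Psmb11, the thymus form, was listed only in the female bulk libraries, with at most 0.0643 CPM (counts per 1000000 counts of the library, which are UMIs in 10x libraries and reads in bulk), and was never tested. Psma8, the testis form, was listed only in bulk and in female nuclei, at no more than 0.918 CPM there.

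UMI totals ranged from 983522 to 14064480 per C57BL/6J 10x library, from 1362810 to 9390078 in Balb/c males and from 4734070 to 35170947 in Balb/c females, and bulk libraries held 2326998 to 31093949 reads. Fresh Balb/c male cells (1362810 to 2573720 UMIs) and cryopreserved C57BL/6J cells (1589682 to 2742014) had small totals throughout and methanol-fixed libraries held 983522 to 6622948, which limits the differences detectable with them. Libraries of 1 group differed by more than sampling noise (chi-square per degree of freedom of at least 3.53), and no pair of 10x libraries shared more than 2.05% of the smaller one's barcodes. Barcodes were clustered without the members and named by markers as 1 of 13 kidney cell classes, and 0% to 2.29% of them stayed unnamed. The labelled tissue showed its defining markers: the 16 proximal tubule markers summed to 14424 to 20871 CPM in fresh cold-dissociated C57BL/6J libraries. Taken over all members, proteasome genes held 0.394% to 0.483% of the UMIs in those libraries.

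The promoters of the catalytic genes that the results below turn on are shown first, with the activator Psme1, because these genes moved in opposite directions on cryopreservation. Each is 250 bases before to 50 bases after the start given by RefSeq on GRCm38.p6, written 5' to 3' on the gene's strand, with matches to a searched motif in capitals.

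Psmb5: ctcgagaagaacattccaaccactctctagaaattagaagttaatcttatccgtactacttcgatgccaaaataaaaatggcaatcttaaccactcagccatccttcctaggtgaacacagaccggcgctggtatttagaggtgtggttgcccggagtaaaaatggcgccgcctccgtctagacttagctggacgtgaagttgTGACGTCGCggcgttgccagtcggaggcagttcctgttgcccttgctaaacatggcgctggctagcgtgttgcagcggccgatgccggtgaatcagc
Psmb8: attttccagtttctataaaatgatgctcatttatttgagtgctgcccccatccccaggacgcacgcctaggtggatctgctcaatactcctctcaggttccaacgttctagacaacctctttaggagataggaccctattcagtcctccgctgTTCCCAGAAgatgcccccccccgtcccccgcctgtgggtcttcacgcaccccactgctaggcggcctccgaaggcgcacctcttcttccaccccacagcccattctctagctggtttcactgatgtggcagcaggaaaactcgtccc
Psmb9: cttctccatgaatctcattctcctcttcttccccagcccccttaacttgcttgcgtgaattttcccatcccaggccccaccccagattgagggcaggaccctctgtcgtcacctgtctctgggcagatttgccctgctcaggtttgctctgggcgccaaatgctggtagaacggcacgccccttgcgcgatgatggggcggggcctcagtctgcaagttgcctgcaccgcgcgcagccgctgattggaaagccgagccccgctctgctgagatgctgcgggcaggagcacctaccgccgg
Psmb10: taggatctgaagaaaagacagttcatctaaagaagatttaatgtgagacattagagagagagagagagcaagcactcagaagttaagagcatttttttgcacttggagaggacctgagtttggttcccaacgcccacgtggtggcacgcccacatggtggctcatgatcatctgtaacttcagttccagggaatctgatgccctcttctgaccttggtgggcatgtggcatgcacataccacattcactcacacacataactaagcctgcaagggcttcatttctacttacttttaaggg
Psme1: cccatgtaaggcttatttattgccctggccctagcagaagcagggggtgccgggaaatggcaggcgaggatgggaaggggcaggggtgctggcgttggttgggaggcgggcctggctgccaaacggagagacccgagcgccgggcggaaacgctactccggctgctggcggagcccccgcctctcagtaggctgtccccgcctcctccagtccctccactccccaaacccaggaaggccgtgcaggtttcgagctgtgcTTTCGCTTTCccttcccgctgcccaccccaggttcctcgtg

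These windows lie at chr14:54617946-54618245 on the minus strand for Psmb5, chr17:34197945-34198244 on the plus strand for Psmb8, chr17:34187281-34187580 on the minus strand for Psmb9, chr8:105938343-105938642 on the minus strand for Psmb10 and chr14:55578244-55578543 on the plus strand for Psme1. Both strands were searched for the gamma-activated site TTCNNNGAA, the core of the interferon-stimulated response element (GAAA, any 2 bases, GAAA), the core of the antioxidant response element TGACNNNGC and CCAAT. Capitals mark the gamma-activated site in Psmb8, the interferon element in Psme1 (read on the other strand) and the antioxidant element in Psmb5. Psmb9 held CCAAT once, on the other strand and printed here in lower case, and Psmb10 held none of the 4. The gamma-activated site was also found in Psmd2 and Psmg1, which fell after cryopreservation of cold-dissociated C57BL/6J cells. The interferon core was also found in Psmb3, Psmd4, Psmd9 and Psmg4. No searched motif was found in the windows of Psme2, which are not printed here. Over the 45 promoters of the 42 members that matched the table, 6.67% held the gamma-activated site, against 8.30% of all 32851 promoters. The interferon core was found in 11.1% against 3.44%, the antioxidant core in 13.3% against 12.4% and CCAAT in 33.3% against 37.4%. Such matches describe the letters of these windows only. In the gene annotation, the windows of Psmb8, Psmb9 and Psme1 lie wholly inside the gene. Sequence before the outermost annotated start of these genes was not searched.

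Warm and cold dissociation are protocols that differ in temperature, enzyme and handling, so the parts of these cannot be told apart in the comparison of one with the other. In fresh 10x libraries, 11 of the 48 members tested were higher and 2 lower after warm dissociation (edgeR, adjusted p under 0.05), where 7.86% of the 12061 genes tested were called higher and 7.07% lower. The median log2 fold change was 0.26 over the members and -0.03 over all genes tested. The 2 that fell were induced catalytic subunits, and those that rose were spread over the 20S core, the 19S particle and the assembly factors.

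Psmb8, the induced counterpart of Psmb5, stood at 56.0, 51.9 and 58.0 CPM in the warm libraries and at 81.7, 86.2 and 85.0 in the cold ones, scaled by TMM. All warm libraries were below all cold ones, a log2 fold change of -0.61 ± 0.09 (SE), adjusted p = 0.00477. Psmb9, which replaces Psmb6, was at 22.0, 18.2 and 23.4 against 32.2, 36.1 and 30.6 CPM, again without overlap, and fell by 0.65 ± 0.13 on the log2 scale (adjusted p = 0.0128). Psmb10 replaces Psmb7, and its warm libraries also lay below its cold ones, but the log2 fold change of -0.35 ± 0.14 (SE), adjusted p = 0.115 did not pass the test.

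Psma4, an alpha subunit, rose most among the called members: it stood at 213, 217 and 229 CPM after warm and 154, 143 and 137 after cold dissociation. These groups did not overlap, and the log2 fold change was 0.60 ± 0.09 (SE), adjusted p = 0.00393. Psmd7, a scaffold partner of the deubiquitinase in the 19S lid, was at 94.1, 92.0 and 95.5 against 65.8, 61.0 and 60.7 CPM and rose by 0.59 ± 0.09 (SE), adjusted p = 0.00477. The assembly chaperone Psmd9 rose by 0.56 ± 0.12 (SE), adjusted p = 0.0161, and the alpha subunits Psma3 and Psma6 rose by 0.49 (adjusted p = 0.0206) and 0.49 (adjusted p = 0.0325). The constitutive catalytic genes had positive values that did not pass: 0.30 (adjusted p = 0.0585) for Psmb5, 0.18 (adjusted p = 0.173) for Psmb6 and 0.45 (adjusted p = 0.0638) for Psmb7. Values of the lid deubiquitinase Psmd14 (0.26 (adjusted p = 0.148)) and of the PA28 activator genes Psme1 (-0.17 (adjusted p = 0.259)) and Psme2 (-0.12 (adjusted p = 0.425)) did not pass either.

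By role, 3 of 7 alpha, 1 of 7 constitutive beta, 1 of 6 ATPase, 5 of 11 other 19S and 1 of 7 assembly genes rose, and the 6 activators or inhibitors held no call. Of the 36 other pathway genes tested, 3 rose, among them the 19S-bound deubiquitinase Uchl5 by 0.72 ± 0.19 (adjusted p = 0.0370) and the ubiquitin receptor Adrm1 by 0.39 ± 0.10 (adjusted p = 0.0304). The summed proximal tubule markers were higher after warm dissociation (28254 to 30119 CPM against 14424 to 20871), and the 13 myeloid markers lower (665.0 to 687 against 1017 to 1113). Xcr1, Clec9a and Flt3 among the myeloid markers were at 0 in the warm libraries. The authors dropped genes detected in too few cells of a sample, so a marker at 0, here and below, need not be absent. The 5 erythroid markers summed to 1789 to 3556 CPM after warm and 4216 to 12042 after cold dissociation, and mitochondrial genes held 20.2% to 25.9% and 26.1% to 31.7% of UMIs. The part of these markers and shares in the whole-library values was not tested. The count of 13 rested on single libraries: it was 3 without the cold library BG3, 4 without the cold BG5 or the warm BG2, 5 without the warm BG6 and 21 without the cold BG1. Scaled by total counts alone, 3 members were higher and 2 lower (4.48% and 6.98% of all genes).

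Within cell classes, 6 of 322 pairs of member and class were higher and 1 lower after warm dissociation, against 2.12% and 1.53% of all pairs tested. All 7 were in proximal tubule-like cells, and without that class none of 274 pairs was called by edgeR (16 at an unadjusted p under 0.05), where 1.90% of all pairs were higher and 0.556% lower. Psmd7 rose there by 0.71 ± 0.11 (SE), adjusted p = 0.00802, Psmd9 by 0.55 (adjusted p = 0.0363) and Psma6 by 0.55 (adjusted p = 0.0369), and Psme4, the PA200 activator, fell (-0.65 ± 0.14 (SE), adjusted p = 0.0221). Psmb8 within endothelial-like cells ranged from 409 to 471 CPM after warm and from 412 to 469 after cold dissociation, a log2 difference of 0.03 ± 0.15 (SE), adjusted p = 0.976. In proximal tubule-like cells it ranged from 8.25 to 14.5 against 10.9 to 12.8, with a difference of -0.20 ± 0.23 (SE), adjusted p = 0.626. In myeloid-like cells the difference was -0.29 (adjusted p = 0.444) and in T or NK lymphocyte-like cells -0.25 (adjusted p = 0.595), and Psmb8 was not called in any of these 4 classes. The 7 calls became 0 without the cold BG3 or the warm BG2, 1 without the cold BG5 or the warm BG6 and 13 without the cold BG1. Depth differed between classes: proximal tubule-like cells held 19032700 warm and 13297000 cold UMIs, and ascending loop of Henle-like cells 1466380 and 648239. The median over the members was 0.24 in each of these classes, and ranged from -0.36 to 0.24 over all classes. An absence of calls outside proximal tubule-like cells is therefore not an absence of change.

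Bulk RNA-seq of the same kind of suspensions gave no called member of 47 tested (edgeR, 3 at an unadjusted p under 0.05, and none by DESeq2), while 5.42% of the 14102 genes tested were called higher and 3.26% lower. The median was -0.05 over the members and -0.01 over all genes. Psmb8 was at 9.34, 7.09 and 7.61 CPM in warm and 10.2, 11.8 and 9.07 in cold suspensions, and the highest warm value lay above the lowest cold one. Its difference of -0.36 ± 0.17 (SE), adjusted p = 0.242 and those of Psmb9 (-0.26 (adjusted p = 0.648)), Psmb10 (-0.21 (adjusted p = 0.571)), Psme1 (0.05 (adjusted p = 0.845)) and Psme2 (-0.05 (adjusted p = 0.797)) did not pass. Psmb5 stood at 58.7, 66.5 and 51.4 against 57.6, 59.7 and 61.0 CPM, with a difference of -0.01 ± 0.09 (SE), adjusted p = 0.959. Psmb6, Psmb7 and Psmd14 differed by -0.02 (adjusted p = 0.907), 0.02 (adjusted p = 0.906) and 0.06 (adjusted p = 0.757). Of the 35 pathway genes tested, 2 rose and none fell. Irf1, a transcription factor of the induced subunits, rose by 1.63 ± 0.12 (adjusted p = 3.05e-06), and the other was 1 of 12 ubiquitin and shuttle genes tested. In fresh 10x cells, none of the 7 tested genes for transcription of proteasome genes was called between warm and cold. In bulk, fewer cells of a type and less RNA per cell cannot be told apart. Of the 47 members tested in both assays, 18 had the same sign in bulk and 10x (52.2% over all genes), with r = 0.50 and rho = 0.245 across members and 0.34 and 0.13 across all genes.

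Bulk RNA of intact female kidney was compared with that of the cold suspension. The intact kidneys were flash-frozen and the suspensions filtered and washed, so freezing, dissociation and handling cannot be told apart. Only Psmd5, a chaperone of the 19S base, was called of 48 members, where 12.1% of 16538 genes tested were higher in intact kidney and 7.91% lower. It was at 63.1, 59.5 and 63.6 CPM in intact kidney against 51.3, 55.4 and 55.5 in the suspension, without overlap, and the log2 difference was 0.20 ± 0.06 (SE), adjusted p = 0.0313. That call was lost without LDK1, LDK3, LDK4, LDK5 or LDK6. Psmb8 was at 11.1, 15.4 and 15.0 against 13.2, 13.5 and 15.3 CPM, overlapping, with a difference of -0.02 (adjusted p = 0.945). Psmb9 and Psmb10 differed by 0.06 (adjusted p = 0.788) and -0.03 (adjusted p = 0.839), and their constitutive counterparts Psmb6 and Psmb7 by -0.05 (adjusted p = 0.552) and 0.06 (adjusted p = 0.494). For Psmb5, Psme1, Psme2 and Psmd14 the values were 0.11 (adjusted p = 0.179), -0.04 (adjusted p = 0.743), -0.04 (adjusted p = 0.685) and 0.09 (adjusted p = 0.307). Of 36 pathway genes, Ddi2, the protease that activates the proteasome transcription factor Nfe2l1, was higher in intact kidney by 0.76 ± 0.06 (adjusted p = 4.24e-05) and polyubiquitin Ubb lower by 0.18 on the log2 scale (adjusted p = 0.0229).

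In bulk, levels were scaled per kb of exon to set genes side by side. The length counts every base of a gene annotated as exon (3381 for Psmb8, 3660 for Psmb9, 899 for Psmb5). This length can exceed that of a gene's transcripts, so the order below depends on the annotation. In cold suspensions of C57BL/6J kidney, the core subunit Psmb4 (74.1 ± 4.03 CPM per kb, SD, n = 3) and the catalytic Psmb5 (65.3 ± 0.55) had the highest levels among the members, followed by the 19S scaffold Psmd2 (54.2 ± 1.81) and the alpha subunit Psma6 (52.7 ± 3.69). Psmd2 and Psma6 did not differ beyond their spread. Psmb10 (6.78 ± 0.698), Psmb8 (3.03 ± 0.443) and Psmb9 (1.57 ± 0.627) were near the low end. In intact female kidney the order began with Psmb4 (81.8 ± 2.01), Psmc3 (75.1 ± 3.61) and Psmc5 (74.5 ± 4.67), and Psmb10, Psmb8 and Psmb9 were at 9.78 ± 0.339, 4.08 ± 0.765 and 2.08 ± 0.332.

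**Figure D1:**
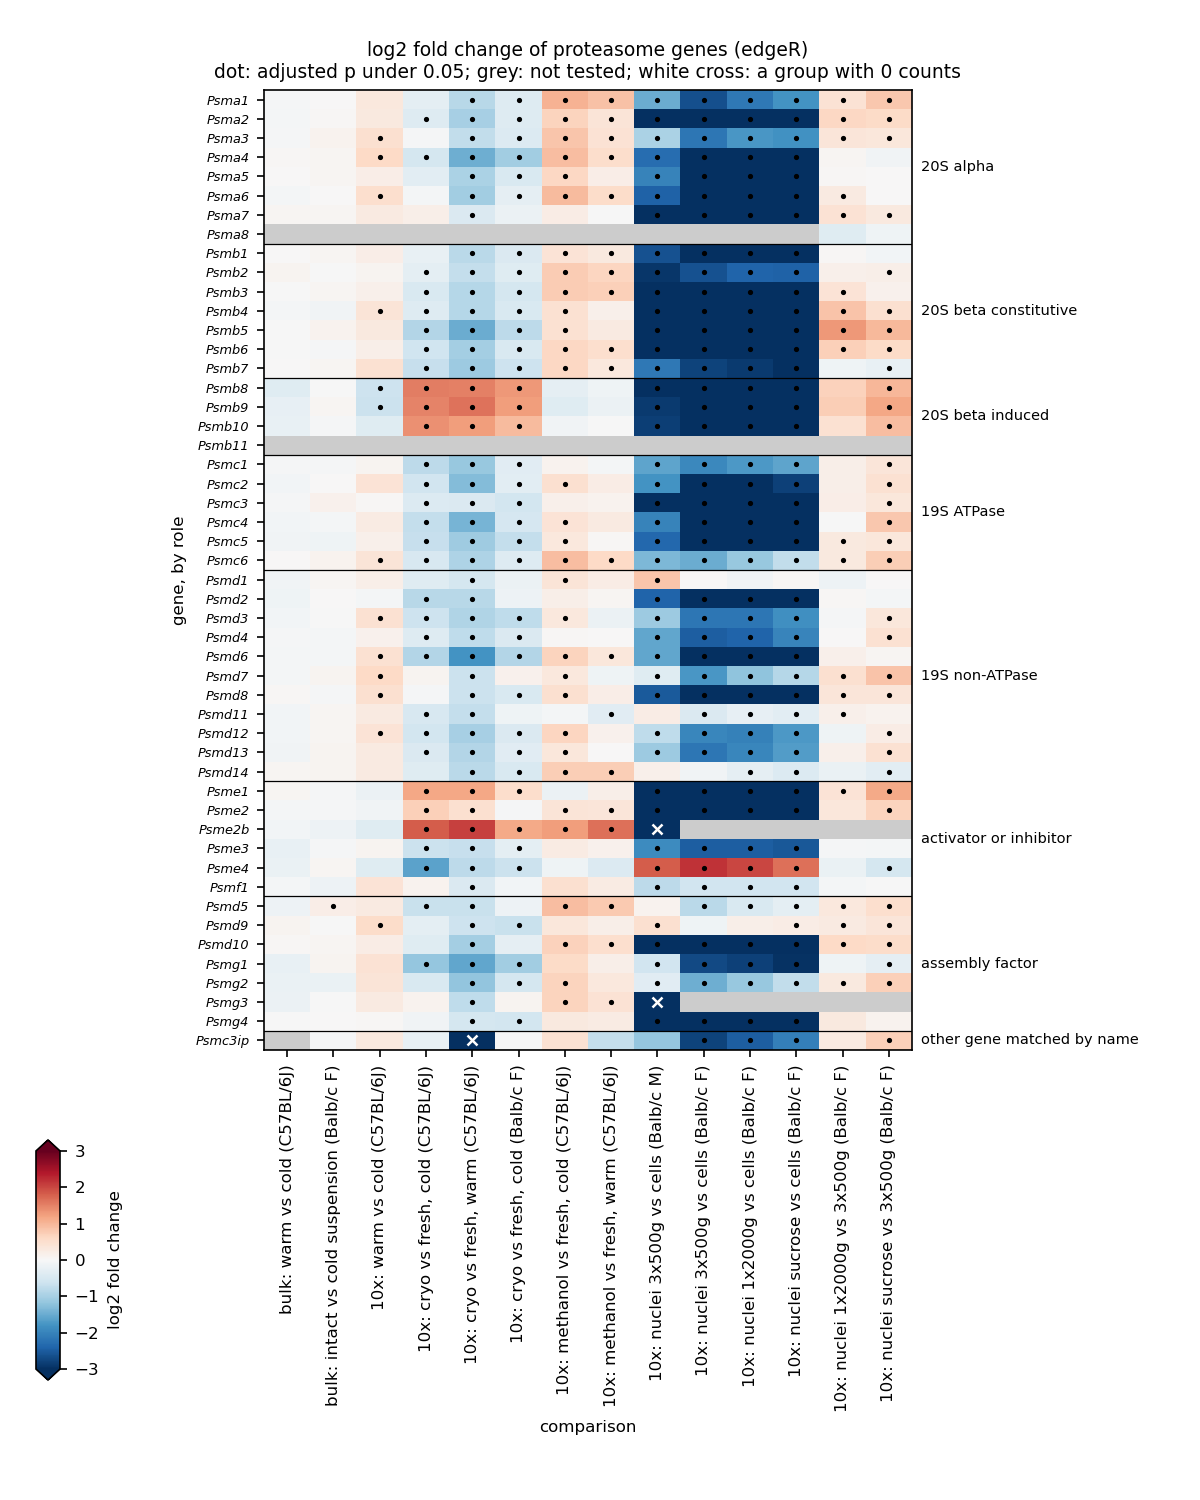
Heat map of log2 fold changes from edgeR, with the members in rows by role and the whole-library comparisons in columns; a dot marks an adjusted p under 0.05, grey a member not tested and a white cross a group with 0 counts. After cryopreservation Psmb8, Psmb9, Psmb10 and Psme1 are higher while most core and 19S genes are lower, and in nuclei nearly every member is lower apart from Psme4.

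Cryopreservation was compared with fresh profiling to see whether suspensions can be stored. Under TMM, the tested induced catalytic subunits were called higher in each C57BL/6J and Balb/c comparison. No alpha, constitutive beta, 19S or assembly gene was called higher, and the activators or inhibitors went both ways. Roles were not tested against each other. After cold dissociation of C57BL/6J kidney, 6 of 48 members were higher and 25 lower in cryopreserved cells, where 21.8% of the 11392 genes tested were higher and 28.9% lower. The 6 were Psmb8, Psmb9, Psmb10 and the activators Psme1, Psme2 and Psme2b. All 6 ATPases, 6 of 7 constitutive beta, 7 of 11 other 19S, 2 of 7 alpha and 2 of 7 assembly genes fell, with Psme3 and Psme4 among the activators. The median was -0.38 over the members and -0.13 over all genes. Scaled by total counts, 11 were higher and 5 lower (37.9% and 18.4% of all genes), with a median of 0.07 over the members and 0.33 over all genes.

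Psmb8 stood at 315, 233 and 322 CPM in the cryopreserved libraries and at 96.9, 101 and 100.2 in the fresh ones; TMM factors differ between comparisons, so the fresh values are not those given above. The groups lay far apart, and the log2 fold change was 1.54 ± 0.14 (SE), adjusted p = 0.000109. Psmb9 was at 105, 97.5 and 123 against 38.2, 42.3 and 36.1 and rose by 1.48 ± 0.13 (SE), adjusted p = 8.15e-05. Psmb10 was at 134, 111 and 122 against 42.2, 54.5 and 44.9 and rose by 1.37 ± 0.14 (SE), adjusted p = 0.000141. In each of these, every cryopreserved library was above every fresh one.

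Psmb5 moved the other way: it was at 146, 136 and 143 CPM in cryopreserved against 291, 243 and 250.5 in fresh libraries, without overlap, and its log2 fold change was -0.88 ± 0.11 (SE), adjusted p = 0.000459. The same was seen for Psmb6 at 188, 198 and 221 against 333, 295 and 294 (-0.60 ± 0.11 (SE), adjusted p = 0.00297) and for Psmb7 at 90.1, 71.6 and 93.9 against 167, 129 and 112 (-0.68 ± 0.18 (SE), adjusted p = 0.0148). Under total counts these 3 kept their sign, at -0.43, -0.15 and -0.24, and only Psmb5 stayed called (adjusted p = 0.0256).

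The largest falls were those of Psme4 (-1.59 ± 0.19 (SE), adjusted p = 0.000316), the assembly chaperone Psmg1 (-1.16 (adjusted p = 0.00486)), the lid subunit Psmd6 (-0.89 (adjusted p = 0.000703)), Psmb5 and the scaffold Psmd2 (-0.83 (adjusted p = 0.000452)). Psme1, a subunit of the PA28 cap, stood at 225, 207 and 244 against 95.2, 107 and 99.3 CPM and rose by 1.16 ± 0.11 (SE), adjusted p = 0.000117, and its partner Psme2 rose by 0.71 ± 0.13 (SE), adjusted p = 0.00305. Psme2b rose by 1.82 ± 0.27 (SE), adjusted p = 0.00105, but it is a near copy of Psme2 and all of its exon bases lie in another annotated gene of the same strand, so its reads are uncertain. Psmd14 had a value of -0.36 (adjusted p = 0.0568), which turned to 0.09 under total counts.

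After warm dissociation, all 48 members were called: 6 higher and 42 lower, where 25.8% of 10778 genes were higher and 33.9% lower. The median was -0.82 over the members and -0.15 over all genes; by total counts 6 were higher and 28 lower (38.7% and 23.3% of all genes), with medians of -0.41 and 0.27. Psmb8 stood at 145, 228 and 166 CPM in cryopreserved and 64.6, 59.5 and 66.7 in fresh libraries and rose by 1.50 ± 0.17 (SE), adjusted p = 0.000221. Psmb9 rose by 1.63 ± 0.22 (SE), adjusted p = 0.000599, Psmb10 by 1.26 (adjusted p = 0.000301), Psme1 by 1.16 (adjusted p = 9.6e-05), Psme2 by 0.49 (adjusted p = 0.0102) and Psme2b by 2.05 (adjusted p = 0.00199). Psmb5 was at 119, 112 and 103 against 315, 311 and 315 and changed by -1.50 ± 0.08 (SE), adjusted p = 9.15e-06. Psmd6 fell most of the members with counts in both groups, from 101, 90.3 and 102 to 29.5, 27.7 and 27.5 CPM (-1.79 ± 0.10 (SE), adjusted p = 1.09e-05).

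Also lower after warm dissociation and cryopreservation were Psmg1 (-1.57 (adjusted p = 0.000197)), Psma4 (-1.46 (adjusted p = 1.62e-05)), Psmb7 (-1.09 (adjusted p = 6.17e-05)), Psmb6 (-1.02 (adjusted p = 0.000225)) and Psmd14 (-0.81 (adjusted p = 0.000661)). Psmc3ip, the member by name alone, had no UMI among 5513284 in the cryopreserved libraries and 141 among 25616465 in the fresh ones. The authors kept only genes detected in a minimum number of cells of a sample, so this 0 can also come from that filter. With 3 counts over the group as the floor, and only if the 0 was measured, this is at least 10.1-fold lower. The median above is the same with the gene at that bound.

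In Balb/c females, stored for 2 weeks and spun faster before freezing and after thawing, 5 of 48 members were higher and 32 lower after cryopreservation, where 28.9% of 11947 genes were higher and 29.1% lower (medians -0.38 and 0.02). By total counts 10 were higher and 9 lower, against 51.8% and 15.6% of all genes (medians -0.02 and 0.38). Psmb8 was at 118, 129 and 179 CPM in cryopreserved and 55.2, 50.1 and 66.5 in fresh libraries and rose by 1.31 ± 0.17 (SE), adjusted p = 0.000235. Psmb9 rose by 1.25 ± 0.18 (SE), adjusted p = 0.000403, Psmb10 by 0.95 ± 0.09 (SE), adjusted p = 4.81e-05, Psme1 by 0.52 ± 0.09 (SE), adjusted p = 0.00126 and Psme2b by 1.13 (adjusted p = 0.00452). Psme2 was at 90.1, 100.2 and 98.5 against 93.0, 102 and 102, overlapping, with a difference of -0.04 (adjusted p = 0.669) that turned to 0.32 under total counts (adjusted p = 0.0124).

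Psma4 fell most in the females, from 259, 276 and 270.4 to 121, 134 and 134 CPM (-1.05 ± 0.08 (SE), adjusted p = 1.88e-05). Psmb5 was at 170.3, 189 and 181 against 311, 333 and 291 and changed by -0.79 ± 0.09 (SE), adjusted p = 0.000119. Lower as well were Psmg1 (-1.04 (adjusted p = 3.35e-05)), Psmd6 (-0.88 (adjusted p = 3.41e-05)), Psmd3 (-0.77 (adjusted p = 7.18e-05)), Psmb7 (-0.63 (adjusted p = 0.000133)), Psmb6 (-0.47 (adjusted p = 0.00188)) and Psmd14 (-0.47 (adjusted p = 0.00113)). Across the 48 members, the C57BL/6J and Balb/c effects after cold dissociation, which share no library, had the same sign in 45 (80.0% over all genes), with r = 0.89 and a Spearman rho of 0.65 across members against 0.73 and 0.79 across all genes.

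The other genes of the pathway were counted in 4 lists, of which some moved one way and others both ways. Of the 8 antigen presentation genes (Tap1, Tap2, Tapbp, Tapbpl, Erap1, B2m, H2-K1, H2-D1), 7 rose in each of the 3 comparisons and none fell. Of the 8 tested 19S-bound or maturation factors, 3 fell after cold dissociation, 6 after warm and 4 in the females, and none rose. Of the genes for transcription of proteasome genes, 4 rose and 2 fell after cold, 4 and 1 after warm and 4 and 2 in the females. Of 13 ubiquitin and shuttle genes, 4 rose and 4 fell after either dissociation of C57BL/6J kidney, and 0 rose and 8 fell in the females. In total, 15 of 35 pathway genes rose and 9 fell after cold dissociation, 15 of 35 and 11 after warm, and 11 of 36 and 14 in the females. Irf1 rose by 2.04 ± 0.15 (adjusted p = 4.31e-05), B2m, the light chain of MHC class I, by 2.00 ± 0.14 (adjusted p = 3.59e-05) and the class I heavy chain H2-D1 by 1.44 ± 0.15 (adjusted p = 0.000169) after cold dissociation, and the ubiquilin shuttle Ubqln1, the deglycosylase Ngly1 and the Vcp cofactor Nploc4 fell (-1.35 ± 0.17 (adjusted p = 0.000485), -1.16 ± 0.14 (adjusted p = 0.000362) and -1.14 ± 0.26 (adjusted p = 0.00812)). After warm dissociation, Irf1, B2m and the peptide transporter Tap1 rose by 2.55 ± 0.15 (adjusted p = 1.11e-05), 1.60 ± 0.15 (adjusted p = 9.1e-05) and 1.55 ± 0.22 (adjusted p = 0.000725), and Ngly1, Adrm1 and the 19S-bound thioredoxin Txnl1 changed by -1.59 ± 0.22 (adjusted p = 0.000636), -1.21 ± 0.10 (adjusted p = 5.27e-05) and -1.10 ± 0.15 (adjusted p = 0.000636). In the females the class I transactivator Nlrc5, Tap1 and H2-K1 rose by 1.51 ± 0.31 (adjusted p = 0.00304), 1.30 ± 0.19 (adjusted p = 0.000481) and 1.21 ± 0.15 (adjusted p = 0.000219), and Ngly1, Ubqln1 and Uchl5 changed by -0.83 ± 0.10 (adjusted p = 0.000191), -0.64 ± 0.07 (adjusted p = 0.000117) and -0.55 ± 0.10 (adjusted p = 0.00151).

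The cell classes moved with cryopreservation. Proximal tubule-like cells were 59.6% to 71.9% of barcodes in fresh and 0.859% to 1.81% in cryopreserved cold-dissociated C57BL/6J libraries, and their 16 markers summed to 225 to 355 CPM after cryopreservation, with 7 of them (Cubn, Slc5a2, Slc5a12, Slc22a6, Slc22a8, Slc7a13, Slc22a30) at 0. Myeloid-like cells went from 4.24% to 6.24% of barcodes up to 24.2% to 29.9% and endothelial-like cells from 5.14% to 8.30% up to 23.5% to 26.2%. The 13 myeloid markers summed to 1017 to 1113 CPM in fresh and 4701 to 7723 in cryopreserved libraries, and the 12 endothelial markers to 550.3 to 657 and 2102 to 2601. In the females, proximal tubule-like cells were 51.3% to 59.4% and 9.76% to 12.3% of barcodes, and the myeloid markers summed to 351 to 845 and 1762 to 2265. The 5 erythroid markers summed to 4216 to 12042 CPM in fresh and 4.41 to 59.3 in cryopreserved cold-dissociated C57BL/6J libraries, with Hbb-bt and Alas2 at 0, and mitochondrial genes held 26.1% to 31.7% and 13.6% to 15.4% of UMIs. After warm dissociation, proximal tubule-like cells were 72.6% to 75.6% of barcodes in fresh and 1.79% to 4.78% in cryopreserved libraries, with their markers at 28254 to 30119 and 336 to 441 CPM and the same 7 at 0. Myeloid-like cells were 3.07% to 3.59% and 10.3% to 22.1%, and endothelial-like cells 4.39% to 4.76% and 21.3% to 25%. The myeloid markers summed to 665.0 to 687 and 1846 to 3579 CPM there and the erythroid ones to 1789 to 3556 and 12.6 to 31.2. The warm cryopreserved library BG31 stood apart with 28.4% principal cell-like cells, against 5.30% and 6.51% in the other two, and without it all 48 members were still called. The part of these markers and shares in the whole-library values was not tested.

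Within endothelial-like cells of the cold-dissociated C57BL/6J libraries, Psmb8 ranged from 355 to 429 CPM after cryopreservation and from 401 to 462 in fresh cells, overlapping, with a log2 difference of -0.08 ± 0.16 (SE), adjusted p = 0.868. Within myeloid-like, T or NK lymphocyte-like and B lymphocyte-like cells the difference was -0.09 (adjusted p = 0.795), -0.11 (adjusted p = 0.807) and -0.09 (adjusted p = 0.847). After warm dissociation Psmb8 differed by -0.04 (adjusted p = 0.905) in endothelial-like and -0.19 (adjusted p = 0.584) in myeloid-like cells and was lower in T or NK lymphocyte-like cells (-0.78 ± 0.17 (SE), adjusted p = 0.0234). In the females it differed by -0.26 (adjusted p = 0.527) in endothelial-like and 0.12 (adjusted p = 0.825) in myeloid-like cells. Psmb8 was not called higher in any of the classes named here, and was called higher in proximal tubule-like cells in all 3 comparisons.

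Over all classes, 3 of 343 pairs of member and class were higher and 13 lower after cold dissociation (3.19% and 6.06% of all pairs), 4 of 260 and 19 after warm (4.49% and 7.13%), and 4 of 469 and 23 in the females (3.99% and 5.06%). By total counts they were 4 and 1 after cold dissociation (3.49% and 2.57% of all pairs), 3 and 11 after warm (3.81% and 4.86%), and 8 and 7 in the females (6.49% and 4.75%). Fresh and stored C57BL/6J libraries hold aliquots of the same suspensions, and with the ID they share as a block 3 pairs were higher and 3 lower after cold dissociation (4.33% and 5.20% of all pairs) and 4 higher and 9 lower after warm (3.97% and 5.12%). Most calls were in proximal tubule-like cells: without them, 1 and 1 of 298 (3.66% and 3.61% of all pairs), 1 and 8 of 213 (4.89% and 3.35%), and 0 and 2 of 422 pairs (1.27% and 2.45%) were called. Few such cells were left, 47 after cold and 100 after warm dissociation in C57BL/6J and 475 in the females, and 72.3%, 78.0% and 44.0% of them sat in a cluster other than the leading one of the fresh cells. In C57BL/6J that was cluster 21 in place of clusters 12 (cold) and 4 (warm), with a median UMI count 0.526 times that of its samples, and in the females cluster 23 in place of cluster 0. Proximal tubule-like cells of C57BL/6J held 29893 cryopreserved and 13297000 fresh UMIs after cold dissociation, and 66973 and 19032700 after warm. Members there can pass the filter on low counts through the fresh cells alone, so the counts with this class are a description. Its medians were -1.71 over the members and -3.82 over all genes after cold, -0.84 and -1.64 after warm, and -0.32 and 0.05 in the females.

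The part of RNA from other cells in the proximal tubule-like values of cryopreserved libraries was not tested. In the females, Psmb8 in proximal tubule-like cells ranged from 51.9 to 82.9 CPM after cryopreservation (166 UMIs) and from 7.86 to 8.71 in fresh cells (265 UMIs), and rose by 2.97 ± 0.18 (SE), adjusted p = 4.79e-09. Psmb9 rose there by 2.39 (adjusted p = 4.05e-06) and Psmb10 by 1.81 (adjusted p = 1.12e-06), and Psma4, Psmg1 and Psmb5 changed by -1.04 (adjusted p = 1.06e-06), -0.69 (adjusted p = 0.00324) and -0.53 (adjusted p = 0.000837). In ascending loop of Henle-like cells Psmd14 fell (-1.26 (adjusted p = 0.0213)). In C57BL/6J the proximal tubule-like values rested on very few UMIs. After cold dissociation Psmb10 (7 against 124 UMIs) and Psmb8 (7 against 147) were higher by 3.22 (adjusted p = 0.000508) and 2.98 (adjusted p = 0.00138), and Psma7 was higher in distal convoluted and connecting tubule-like cells (0.73 (adjusted p = 0.0369)). After warm dissociation Psmb9 (13 against 72 UMIs), Psmb8 (13 against 191) and Psme1 (28 against 758) were higher by 4.92 (adjusted p = 1.03e-11), 3.48 (adjusted p = 1.33e-06) and 2.63 (adjusted p = 3.23e-08). Psmd4, Psmd3 and Psme4 after cold and Psme4, Psmd10 and Psmg1 after warm dissociation were called lower with 0 UMIs in the cryopreserved cells, so their fitted folds depend on the prior count. With the block, the calls of Psmd3 (adjusted p = 0.114) and Psme4 (adjusted p = 0.139) after cold and of Psme4 (adjusted p = 0.138), Psmd10 (adjusted p = 0.138) and Psmg1 (adjusted p = 0.174) after warm dissociation were lost.

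These calls were unstable to single libraries. Of the 16 after cold dissociation, none was left without the fresh BG3 or BG5, 2 without BG1, 6 without the cryopreserved BG32 and 10 without BG30. Of the 23 after warm, 4 were left without any 1 of the fresh BG2, BG4 and BG6, 13 without the cryopreserved BG33 or BG35 and 15 without BG31.

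The cryopreservation effect itself was tested for a difference between warm and cold dissociation. It was lower after warm dissociation for 15 of 48 members and higher for none, where 2.07% of 11749 genes were called higher and 4.25% lower. Of these, 6 were alpha subunits (Psma2 to Psma7), 4 constitutive beta subunits (Psmb1, Psmb2, Psmb3, Psmb5), 3 19S subunits (Psmc4, Psmd6, Psmd7) and 1 an assembly factor (Psmg3), with Psmc3ip. Psma6 differed most among those with counts in all groups (-1.0 ± 0.17, SE, adjusted p = 0.00884), followed by Psma4 (-0.96 ± 0.17, 0.00992) and Psmd6 (-0.93 ± 0.15, 0.00773). For Psmb8, Psmb9, Psmb10 and Psme1 the difference was -0.06, 0.13, -0.14 and -0.03 with adjusted p of 0.964, 0.874, 0.784 and 1, so a difference between the dissociations was not detected for the genes that rose. The fresh libraries enter this difference, and Psma3, Psma4, Psma6 and Psmd7 among these members were called higher in fresh warm than in fresh cold cells. The count fell to 9 without the warm fresh BG2 or BG6 or the cold fresh BG3.

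**Figure D2:**
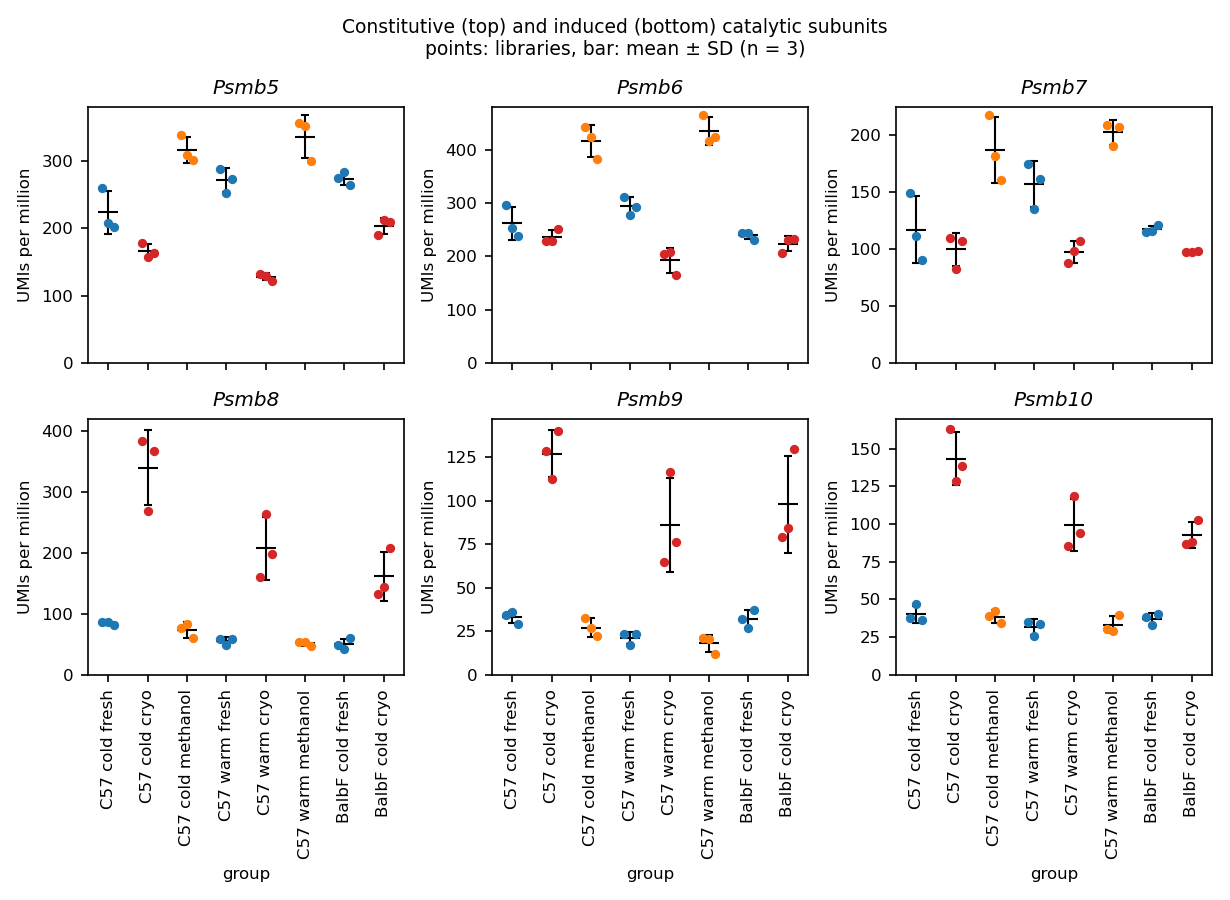
CPM (vertical axes, from 0; per total UMIs) of Psmb5, Psmb6 and Psmb7 in the top row and of Psmb8, Psmb9 and Psmb10 below them, for the C57BL/6J and Balb/c female (BalbF) groups of 10x cell libraries; points are libraries and bars the mean ± SD (n = 3). The cryopreserved groups have the highest levels of the induced genes in both experiments.

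Methanol fixation, the other storage method, was compared with fresh profiling within each dissociation. After cold dissociation most constitutive 20S core and 19S genes were higher in fixed cells. After warm dissociation 5 of 7 alpha and 5 of 7 constitutive beta subunits rose, but 1 of 6 ATPases and 2 of 11 other 19S genes. Without a block, the induced subunits held no call. After cold dissociation 31 of 48 members were higher and none lower (edgeR), where 14.3% of 11910 genes were higher and 13.6% lower, and the median was 0.46 over the members against -0.08 over all genes. All 7 constitutive beta, 6 of 7 alpha, 4 of 6 ATPase, 8 of 11 other 19S, 4 of 7 assembly and 2 of 6 activator genes rose. After warm dissociation 18 were higher and 1 lower, where 7.53% of 10826 genes were higher and 9.77% lower (medians 0.22 and -0.20).

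Psma1, an alpha subunit, was at 203, 222 and 199 CPM in methanol-fixed and 113, 98.7 and 94.3 in fresh libraries after cold dissociation, every fixed library above every fresh one, and rose by 1.03 ± 0.10 (SE), adjusted p = 0.000870. After warm dissociation it was at 244, 221 and 235 against 129.6, 115 and 136 and rose by 0.88 ± 0.09 (SE), adjusted p = 0.00227. Psma4 was at 287, 289.9 and 269 against 158, 146 and 140.3 and rose by 0.93 ± 0.09 (SE), adjusted p = 0.000802 after cold dissociation. Psma6 and the ATPase Psmc6 rose by 0.95 (adjusted p = 0.00143) and 0.93 (adjusted p = 0.00143), and Psme2b, whose reads are uncertain, by 1.26 (adjusted p = 0.0120).

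Psmb5 was at 306, 306 and 322 CPM in fixed and 251, 212 and 217 in fresh cold-dissociated libraries, without overlap, and rose by 0.46 ± 0.10 (SE), adjusted p = 0.00917. Psmb6, Psmb7, Psmd14 and Psme2 rose by 0.62 (adjusted p = 0.00225), 0.63 (adjusted p = 0.0125), 0.73 (adjusted p = 0.00364) and 0.38 (adjusted p = 0.0233). Psmb8 was at 69.0, 82.7 and 63.5 against 83.5, 88.1 and 86.9, with all fixed libraries below all fresh ones, and its difference of -0.26 ± 0.12 (SE), adjusted p = 0.128 did not pass. For Psmb9, Psmb10 and Psme1 the differences were -0.37 (adjusted p = 0.0596), -0.11 (adjusted p = 0.592) and -0.17 (adjusted p = 0.256). With the ID shared by fixed and fresh libraries as a block, Psmb9 was called lower (adjusted p = 0.0289), and 33 members were higher and 1 lower (18.3% and 17.4% of all genes).

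After warm dissociation, the rises that were largest after Psme2b (1.66 (adjusted p = 0.00735)) and Psma1 were those of Psmd5 (0.78 (adjusted p = 0.00785)), Psmd14 (0.74 (adjusted p = 0.00785)) and Psmb3 (0.72 (adjusted p = 0.00222)). Psmd11, a lid subunit, was the only member that fell, from 78.5, 69.0 and 79.0 to 56.8, 61.3 and 59.2 CPM (-0.35 ± 0.09 (SE), adjusted p = 0.0409), and with the block its call was lost (-0.33 (adjusted p = 0.0570)). Psmb6, Psmb7 and Psme2 rose by 0.52 (adjusted p = 0.00364), 0.31 (adjusted p = 0.0306) and 0.36 (adjusted p = 0.0478), and Psmb5, Psmb8, Psmb9, Psmb10 and Psme1 had values of 0.27 (adjusted p = 0.0956), -0.12 (adjusted p = 0.64), -0.17 (adjusted p = 0.636), -0.01 (adjusted p = 0.972) and 0.18 (adjusted p = 0.230). With the block, Psmb5 was just inside the threshold (0.27 (adjusted p = 0.049994)). The 2 methanol effects, which share no library, had the same sign in 42 of 48 members (78.7% over all genes), with r = 0.78 and rho = 0.86 across members and 0.60 and 0.75 across all genes. Their difference gave no called member (edgeR, 10 at an unadjusted p under 0.05, and none under the other scalings), and 0.0% of 12001 genes were called higher and 0.0% lower. That fit did not pair fixed with fresh libraries. The 31 calls after cold dissociation became 18 without the fresh BG3 and 20 without BG5, and the 19 after warm became 10 without the fresh BG2 or BG6 and 12 without the fixed BG53.

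Of the pathway genes, 7 of 36 rose and 9 fell after cold dissociation. Of the 8 antigen presentation genes 6 fell after cold and 2 after warm dissociation, and of the 8 tested 19S-bound or maturation factors 5 rose and 1 fell, and 2 rose and 1 fell. After cold dissociation Uchl5, the Vcp cofactor listed as Ufd1l, and Txnl1 rose by 1.05 ± 0.16 (adjusted p = 0.00247), 0.62 ± 0.14 (adjusted p = 0.0132) and 0.54 ± 0.12 (adjusted p = 0.0120), and Tap1 and the tapasin-like Tapbpl changed by -1.55 ± 0.18 (adjusted p = 0.00123) and -1.02 ± 0.20 (adjusted p = 0.00709). Nlrc5 was also called lower, with so few UMIs that its fitted fold depends on the prior count. After warm dissociation Uchl5 and Ubb rose by 0.70 ± 0.18 (adjusted p = 0.0351) and 0.63 ± 0.10 (adjusted p = 0.00640), and Nfe2l1, Tap2 and the shuttle Rad23b changed by -0.88 ± 0.21 (adjusted p = 0.0241), -0.81 ± 0.19 (adjusted p = 0.0239) and -0.77 ± 0.16 (adjusted p = 0.0208). Proximal tubule-like cells were 70.1% to 76.2% of barcodes in the fixed cold-dissociated libraries (59.6% to 71.9% fresh), and the myeloid markers summed to 749.8 to 813 CPM (1017 to 1113 fresh), with Itgam, Xcr1 and Flt3 at 0 in the fixed libraries. The 5 erythroid markers summed to 12210 to 26925 CPM in fixed and 4216 to 12042 in fresh libraries after cold dissociation, and to 4262 to 7472 and 1789 to 3556 after warm. Mitochondrial genes held 15.0% to 20.4% of UMIs in fixed and 26.1% to 31.7% in fresh libraries after cold dissociation, and 15.1% to 17.5% and 20.2% to 25.9% after warm. The part of these shares in the members' values was not tested.

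Within classes, 69 of 361 pairs of member and class were higher and 2 lower after cold dissociation (10.2% and 11.4% of all pairs), and 18 of 220 and 3 after warm (4.35% and 6.39%). By total counts they were 127 and 0 after cold (18.1% and 6.64% of all pairs), and 34 and 1 after warm (9.41% and 4.07%). With the shared ID as a block they were 96 and 7 after cold dissociation (14.3% and 15.4% of all pairs). The rises were not limited to 1 class: proximal tubule-like cells held 23, endothelial-like cells 12, and ascending loop of Henle-like, distal tubule-like and myeloid-like cells 7 each. By gene, Psma1 and Psma4 were each called higher in 8 of 11 classes after cold dissociation and Psma2, Psma6, Psmb2 and Psmb6 each in 5 of 11. Psma1 rose in ascending loop of Henle-like cells by 1.46 (adjusted p = 0.00400), Psmc6 in principal cell-like cells by 1.34 (adjusted p = 0.0463) and Psme2b in proximal tubule-like cells by 1.63 (adjusted p = 0.00783). The 2 falls were those of Psmd11 in distal tubule-like cells (-0.88 (adjusted p = 0.0392)) and Psma7 in podocyte-like cells (-0.50 (adjusted p = 0.0488)).

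In proximal tubule-like cells after cold dissociation, Psmb8 ranged from 17.3 to 21.6 CPM in fixed and from 11.3 to 13.1 in fresh cells and rose by 0.73 ± 0.17 (SE), adjusted p = 0.0111. Psmb9 ranged from 7.10 to 7.51 against 2.82 to 3.88 and rose by 1.14 ± 0.28 (SE), adjusted p = 0.0122, and Psmb10 rose by 0.60 ± 0.20 (SE), adjusted p = 0.0487. In endothelial-like, myeloid-like and T or NK lymphocyte-like cells, where its level was higher than in proximal tubule-like cells, Psmb8 differed by -0.32 (adjusted p = 0.175), -0.13 (adjusted p = 0.571) and -0.08 (adjusted p = 0.821). The markers of other classes moved as well: in proximal tubule-like cells the 5 erythroid markers summed to 11980 to 26611 CPM in fixed and 4098 to 11185 in fresh cells, and in endothelial-like cells the 16 proximal tubule markers summed to 5921 to 8548 against 2774 to 3941. In myeloid-like cells these proximal tubule markers summed to 5300 to 6299 against 2145 to 3049. The part of RNA from other cells in these values was not tested. After warm dissociation Psmb8 in proximal tubule-like cells differed by 0.49 (adjusted p = 0.361). The largest called differences there were Psme2b in proximal tubule-like (1.87 (adjusted p = 0.00419)), Psma1 in intercalated cell-like (1.51 (adjusted p = 0.0441)) and Psmc4 in distal tubule-like cells (1.04 (adjusted p = 0.0366)), and the falls were Psmd3 in ascending loop of Henle-like (-1.54 (adjusted p = 0.0164)) and Psmd11 and Psme4 in proximal tubule-like cells (-0.50 (adjusted p = 0.0226) and -0.49 (adjusted p = 0.0454)). The 71 calls became 32 without the fixed BG54 and 33 without the fresh BG3, and the 21 became 10 without BG53, 13 without BG55, 11 without BG2, 12 without BG4 and 9 without BG6.

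Nuclei were compared with cold-dissociated cells to show what single-nucleus profiling captures. Nearly all proteasome transcripts were lower in nuclei. In males 41 of 48 members were lower and 3 higher, where 27.6% of 14027 genes were lower and 53.6% higher, with a median of -2.07 over the members and 0.84 over all genes. In females (SN_FANS_3x500g) 42 of 46 were lower and 1 higher, where 41.0% of 13762 genes were lower and 43.8% higher (medians -3.17 and 0.10). By total counts 38 were lower and 5 higher in males, against 25.1% and 56.7% of all genes (medians -1.90 and 1.01), and 40 lower and 4 higher in females, against 33.8% and 51.7% (medians -2.73 and 0.54). Members held 0.189% to 0.205% of UMIs in male nuclei and 0.532% to 0.644% in male cells. The authors counted exonic reads in cells but both intronic and exonic reads in nuclei, so the counting and the isolation cannot be told apart in these differences. Mitochondrial genes were absent from the nuclei files and from the male cell files and present in the female cell files. The myeloid markers summed to 369 to 1076 CPM in male cells and 105 to 108 in nuclei, and to 351 to 845 and 51.5 to 61.7 in females. The erythroid markers summed to 3411 to 5708 and 67.2 to 125 in males and to 916 to 2053 and 13.2 to 32.6 in females. No nuclei were named as T or NK or B lymphocyte-like in either sex or as myeloid-like in males, and in females myeloid-like cells were 3.57% to 5.82% of cells and 0.602% to 0.80% of nuclei. The part of these markers and shares in the whole-library values was not tested.

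Psme4, whose product PA200 caps the core in the nucleus, was the exception in both sexes. It stood at 306, 309 and 282 CPM in male nuclei and 82.0, 78.9 and 94.8 in cells, without overlap, and was higher by 1.82 ± 0.11 (SE), adjusted p = 3.15e-06. In females it was at 377, 292 and 315 against 67.0, 77.5 and 74.5 and higher by 2.17 ± 0.12 (SE), adjusted p = 2.79e-07. The scaffold Psmd1 and the chaperone Psmd9 were also higher in male nuclei, by 0.84 (adjusted p = 0.000234) and 0.47 (adjusted p = 0.00808). Psmd14 was at 72.7, 74.8 and 70.6 against 69.3, 62.5 and 66.0 in males and 77.0, 72.0 and 69.6 against 78.3, 84.8 and 70.3 in females, with differences of 0.14 ± 0.10 (SE), adjusted p = 0.193 and -0.10 ± 0.09 (SE), adjusted p = 0.323. Under total counts the female difference turned to 0.35 (adjusted p = 0.00162).

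The catalytic pairs fell together. Psmb5 was at 9.57, 10.3 and 8.93 CPM in female nuclei and 476, 542 and 437 in cells, and Psmb8 at 1.67, 4.48 and 2.50 against 84.4, 81.5 and 99.6. These groups lay far apart, with log2 differences of -5.66 ± 0.13 (SE), adjusted p = 4.18e-09 and -4.92 ± 0.29 (SE), adjusted p = 4.42e-07. The differences were -5.24 (adjusted p = 4.2e-09) for Psmb6, -4.22 (adjusted p = 2.63e-07) for Psmb9, -2.78 (adjusted p = 1.15e-08) for Psmb7 and -4.54 (adjusted p = 5.34e-08) for Psmb10. The other genes that fell most in females were the core subunit Psmb4 (-5.84 ± 0.14 (SE), adjusted p = 4.58e-09) and the activator Psme2 (-5.68 (adjusted p = 4.8e-09)), and Psme1 fell by 4.67 on the log2 scale.

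In males, Psmb8 was at 9.36, 5.19 and 4.64 against 116, 80.6 and 53.9 CPM (-3.69 ± 0.34 (SE), adjusted p = 2.73e-05) and Psmb5 at 35.5, 27.3 and 23.4 against 303, 343 and 257 (-3.39 ± 0.19 (SE), adjusted p = 1.68e-06). Psme2 fell most among members with counts in both groups, from 164, 142 and 118 to 4.68, 5.31 and 4.03 (-4.92 ± 0.17 (SE), adjusted p = 4.16e-07), and Psmb3 next (-4.03 ± 0.15 (SE), adjusted p = 4.63e-07). Psmb6, Psmb7, Psmb9, Psmb10 and Psme1 changed by -3.22 (adjusted p = 2.31e-06), -2.14 (adjusted p = 9.44e-07), -2.87 (adjusted p = 0.000112), -2.82 (adjusted p = 8.26e-05) and -3.34 (adjusted p = 3.32e-06). Psme2b and Psmg3 had no UMI among 24697361 in male nuclei and 86 and 178 among 5580887 in cells. With the same floor of 3 counts this is at least 127-fold and at least 263-fold lower. These bounds hold only if the zeros were measured and do not come from the authors' filter on genes detected in few nuclei. All exon bases of Psme2b and 83.5% of those of Psmg3 lie in another annotated gene of the same strand, and these zeros left the median the same at their bounds. Across 46 members the male and female effects, which share no library, had the same sign in 42 (86.5% over all genes), with r = 0.93 and rho = 0.91 across members and 0.75 and 0.87 across all genes.

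The other female protocols were set against the same 3 libraries of fresh cells, so their values are not independent of those above. There were 43 of 46 members lower and 1 higher for SN_FANS_1x2000g (40.5% and 44.4% of 13791 genes, medians -3.03 and 0.11) and 43 lower and 2 higher for SN_sucrose (40.5% and 44.5% of 13786 genes, medians -3.02 and 0.12). Psme4 was higher by 2.01 (adjusted p = 2.6e-07) and 1.65 (adjusted p = 6.22e-08), and Psmd9 by 0.23 (adjusted p = 0.0211) in SN_sucrose. Psmb5 changed by -4.32 (adjusted p = 5.67e-09) and -4.68 (adjusted p = 7.22e-09), Psmb8 by -4.18 (adjusted p = 5.54e-09) and -3.91 (adjusted p = 9.15e-08), Psmb4 by -4.93 (adjusted p = 4.81e-09) and -5.35 (adjusted p = 1.81e-09), Psmb3 by -4.43 (adjusted p = 4.81e-09) and -4.76 (adjusted p = 2.04e-09), Psmb6 by -4.49 (adjusted p = 5.5e-09) and -4.65 (adjusted p = 2.13e-09) and Psme2 by -5.29 (adjusted p = 6.22e-09) and -5.0 (adjusted p = 1.81e-09). Psmd14 was lower by both (-0.26 (adjusted p = 0.0259) and -0.41 (adjusted p = 0.000261)) but turned to 0.16 and 0.03 under total counts. Psmb7, Psmb9, Psmb10 and Psme1 were lower too, between -2.86 (adjusted p = 6.04e-09) for Psmb7 and -4.21 (adjusted p = 5.5e-09) for Psme1, both in SN_FANS_1x2000g.

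Between nuclei protocols, SN_FANS_1x2000g held more of 19 of 47 members than SN_FANS_3x500g and less of none (edgeR), where 19.5% of 17449 genes were higher and 15.4% lower (medians 0.27 and 0.03). SN_sucrose held more of 30 and less of 4, where 23.9% of 17304 genes were higher and 21.4% lower (medians 0.34 and 0.03). Psmb5 was at 27.5, 25.6 and 28.0 CPM in SN_FANS_1x2000g and 10.9, 11.9 and 10.3 in SN_FANS_3x500g and differed by 1.29 ± 0.08 (SE), adjusted p = 0.000155. Psmb4, Psmb6, Psma2 and the chaperone Psmd10 were higher by 0.86 (adjusted p = 0.00298), 0.71 (adjusted p = 0.00107), 0.63 (adjusted p = 0.00133) and 0.61 (adjusted p = 0.0193), and Psme1 by 0.41 (adjusted p = 0.0293). Psmb8, Psmb9, Psmb10, Psmb7, Psme2 and Psmd14 gave 0.70 (adjusted p = 0.124), 0.74 (adjusted p = 0.0668), 0.45 (adjusted p = 0.152), -0.13 (adjusted p = 0.155), 0.35 (adjusted p = 0.209) and -0.21 (adjusted p = 0.0577).

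In SN_sucrose Psme1 was at 17.8, 15.9 and 16.9 CPM against 7.14, 8.15 and 7.62 in SN_FANS_3x500g and higher by 1.14 ± 0.09 (SE), adjusted p = 0.000283. All 3 tested induced subunits were higher: Psmb9 by 1.17 ± 0.26 (SE), adjusted p = 0.00809, Psmb10 by 0.94 ± 0.23 (SE), adjusted p = 0.0117 and Psmb8, at 6.90, 8.19 and 4.90 against 1.91, 5.11 and 2.88 with overlap, by 1.01 ± 0.34 (SE), adjusted p = 0.0420. Psmb5, Psmb6 and Psme2 were higher by 0.97 (adjusted p = 0.00113), 0.58 (adjusted p = 0.00192) and 0.67 (adjusted p = 0.00874). Psme4 was at 261, 270.0 and 253 against 432, 333 and 362 and lower (-0.52 ± 0.10 (SE), adjusted p = 0.00401), with Psmd14 (-0.33 (adjusted p = 0.00357)), Psmg1 (-0.27 (adjusted p = 0.0335)) and Psmb7 (-0.23 (adjusted p = 0.0323)). The 12 endothelial markers summed to 586 to 873 CPM in SN_FANS_3x500g, 1022 to 1412 in SN_FANS_1x2000g and 1251 to 1277 in SN_sucrose. Other classes differed too. From SN_FANS_3x500g to SN_sucrose, myeloid-like nuclei went from 0.602% to 0.80% up to 1.24% to 1.38% of barcodes. Stromal-like nuclei went from 3.07% to 4.97% up to 5.79% to 6.56%, and ascending loop of Henle-like from 17.7% to 20.4% down to 14.3% to 14.4%. The part of these markers and shares in the values was not tested.

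Members with more intron sequence had higher values in nuclei relative to cells, with intronic reads counted in nuclei alone. Across 46 members, the log2 difference between nuclei and cells correlated with the log of intronic length (r = 0.59 in males, 0.72 in females), against 0.32 and 0.47 across all genes. In males, 2 of the 48 members tested were left out of this and of the plot by intronic length because they had no UMI in nuclei: Psmg3, with 401 bp of intron, and Psme2b, with none. The points share libraries and depth, so these are descriptions. The 15 members with the shortest introns (353 to 5823 bp in sum) had a median of -2.87 in males and -4.54 in females, and the 15 with the longest (17833 to 100254 bp) had -0.79 and -1.95. Psmb8 (353 bp) and Psme4 (100254 bp) were the ends of this range. Intronic length is the part of a gene outside every annotated exon, so it too depends on the annotation. The correlation was 0.69 for SN_FANS_1x2000g and 0.63 for SN_sucrose against cells, and -0.61 and -0.64 when these were set against SN_FANS_3x500g (-0.22 across all genes for both, 47 members).

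**Figure D3:**
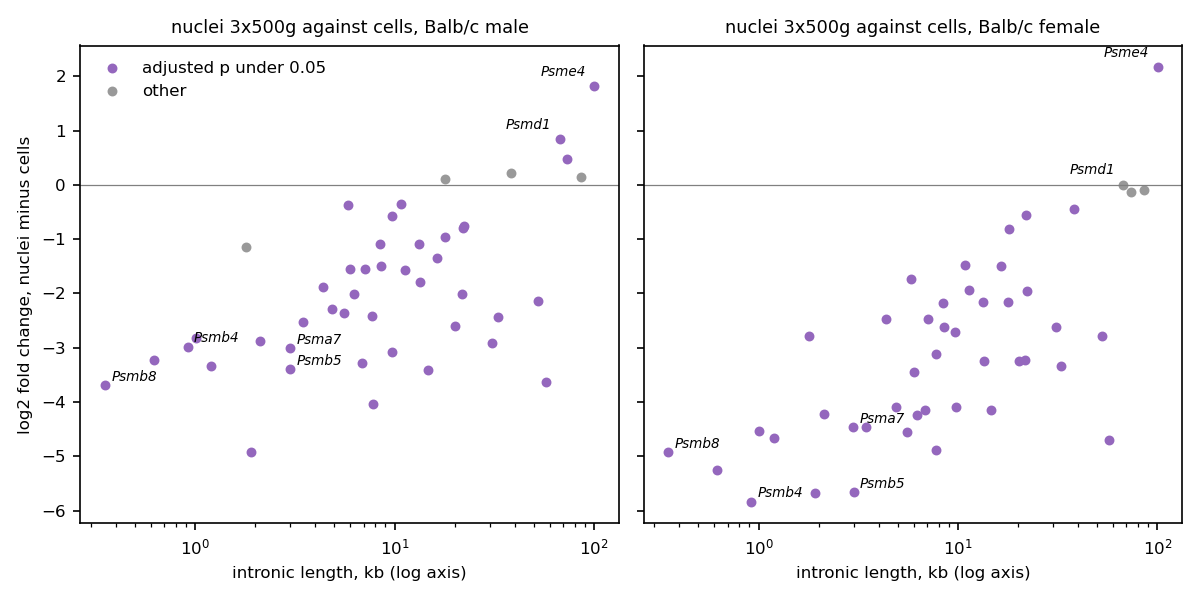
Log2 fold change of nuclei against cells (vertical axis) for each member by its summed intronic length in kb (log axis), in the male and female comparisons; purple points passed an adjusted p under 0.05 and grey points did not. Members with long introns lie higher, with Psme4 at the top, while members with short introns lie lowest.

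Within proximal tubule-like cells, where 47 of 48 members passed the filter on low counts in males, 39 were lower and 2 higher in nuclei, against 27.9% and 52.4% of the 12255 genes tested, with a median of -2.08 over the members tested and 0.80 over all genes. In females all 46 members of the whole-library test were tested in this class, and 42 were lower and 1 higher, against 42.2% and 44.9% of 11041 genes (medians -3.26 and 0.09). In the other classes the filter kept 11 to 41 members in males and 37 to 45 in females. A member nearly absent from nuclei is kept there only through the cells, where it is high, so the counts over all classes are a description. They were 179 of 234 pairs of member and class lower and 9 higher in male nuclei (28.5% and 44.8% of all pairs), and 379 of 424 lower and 11 higher in female nuclei (39.0% and 41.4%). In females Psme4, tested in all 10 classes, was higher by 3.09 (adjusted p = 2.07e-10) in podocyte-like, 2.98 (adjusted p = 3e-09) in thin limb-like and 2.58 (adjusted p = 4.89e-12) in intercalated cell-like cells. The largest falls there rested on few UMIs in nuclei: in the podocyte-like class Psmb4 had 2 in nuclei and 455 in cells and Psme1 had 1 and 215, and in the myeloid-like class Psme2 had 4 and 481. In males the filter on low counts kept Psme4 in 6 of 8 classes, so its values are a description. It ranged from 297 to 312 CPM in nuclei and from 30.4 to 80.3 in cells of the ascending loop of Henle-like class (770 and 15 UMIs), and from 327 to 407 and from 76.6 to 141 in the principal cell-like class (235 and 24 UMIs). Fitted folds of Psmg3 and Psme2b in male proximal tubule-like cells depend on the prior count. Psme2 in endothelial-like cells of males, a class in which 16 members passed the filter, had 1 UMI in nuclei and 82 in cells.

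Of the pathway genes, 6 of 8 antigen presentation genes were lower in male and 7 of 8 in female nuclei, with 1 higher in each. In males Ddi2 and Nploc4 were higher by 2.22 ± 0.13 (adjusted p = 2.27e-06) and 2.13 ± 0.17 (adjusted p = 1.08e-05), together with Nlrc5, whose fitted fold depends on the prior count, and the maturation factor Pomp and Ubb were lower (-3.99 ± 0.26 (adjusted p = 3.88e-06) and -3.74 ± 0.20 (adjusted p = 1.54e-06)). In females Ddi2, the 19S-bound ligase Ube3c and Nploc4 were higher by 2.65 ± 0.09 (adjusted p = 1.22e-08), 2.51 ± 0.12 (adjusted p = 9.03e-08) and 2.15 ± 0.09 (adjusted p = 5.75e-08), and Rps27a and Ubb were lower (-6.02 ± 0.15 (adjusted p = 4.43e-09) and -5.32 ± 0.21 (adjusted p = 3.85e-08)).

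The balance between induced and constitutive catalytic subunits can be read within a library as the share of Psmb8, Psmb9 and Psmb10 in the counts of all 6 catalytic genes, which needs no scaling between libraries. In fresh C57BL/6J cells it was 18.3% to 22.9% after cold dissociation (mean 20.9% ± 2.36, SD, n = 3) and 12.0% to 13.7% after warm (13.0% ± 0.838). In cryopreserved cells it was 52.1% to 56.7% (54.7% ± 2.34) and 42.3% to 53.4% (48.0% ± 5.59). In methanol-fixed cells it was 12.0% to 14.3% (13.1% ± 1.13) and 9.27% to 9.71% (9.52% ± 0.228). The groups of fresh and cryopreserved libraries did not overlap after either dissociation.

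In Balb/c females the share was 13.7% to 18.2% in fresh (15.9% ± 2.26) and 37.0% to 44.8% in cryopreserved cells (39.8% ± 4.36), again without overlap. Female nuclei had 14.3% ± 4.73 (SN_FANS_3x500g), 16.3% ± 1.10 (SN_FANS_1x2000g) and 22.4% ± 1.85 (SN_sucrose). Male cells had 16.7% ± 4.51 and male nuclei 14.9% ± 2.05. Intronic reads were counted in nuclei alone, and intronic length differs between the catalytic genes (52631 bp for Psmb7, 353 bp for Psmb8). Shares of nuclei and cells are therefore set side by side without a comparison. Bulk values were 11.1% ± 1.59 in cold and 9.23% ± 1.55 in warm C57BL/6J suspensions, 8.47% ± 1.63 in intact male kidney, and 11.4% ± 1.34 in intact and 11.6% ± 0.269 in cold-dissociated female kidney. Only the UMIs of 3' ends were counted in 10x libraries, so bulk and 10x shares are set side by side without a comparison.

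**Figure D4:**
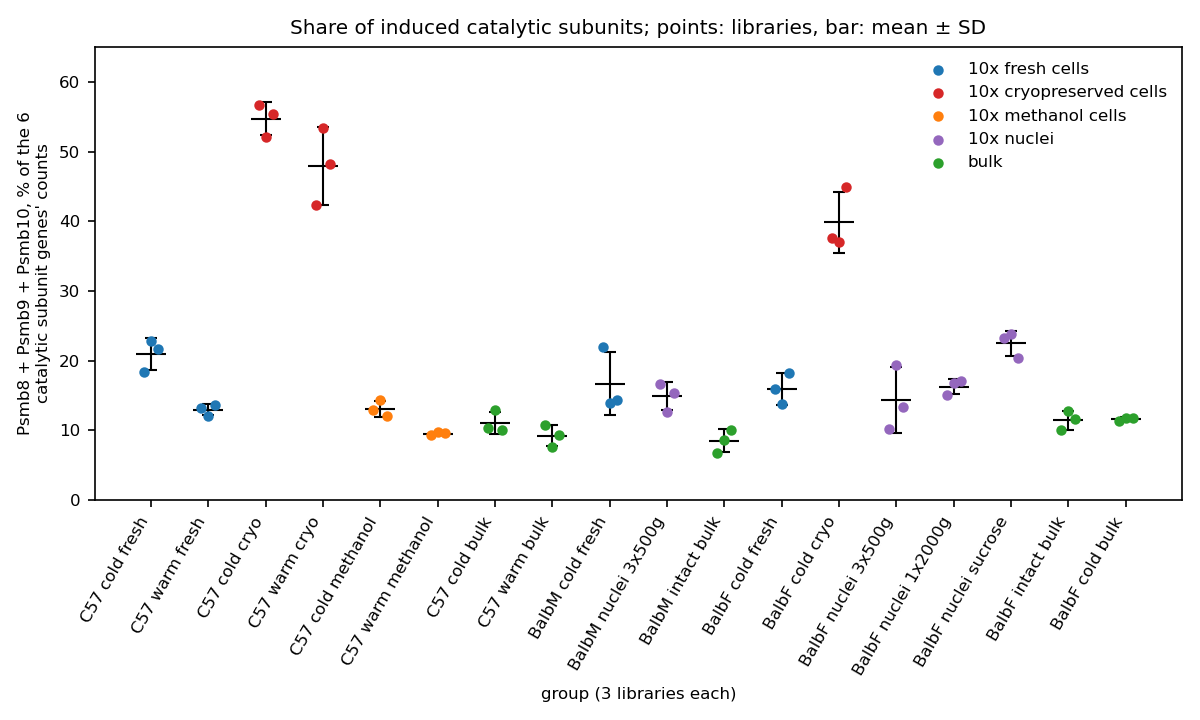
Psmb8, Psmb9 and Psmb10 counts as a percentage of the counts of the 6 catalytic genes (vertical axis, from 0) in each of the 18 groups; points are libraries, bars the mean ± SD (n = 3) and colours the kind of library. The cryopreserved groups lie between 37.0% and 56.7% and all other libraries at 23.7% or below.

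Within a workflow the share differed widely between cell classes. In fresh cold-dissociated C57BL/6J cells it was 67.6% ± 2.44 in myeloid-like and 60.5% ± 0.80 in endothelial-like cells (n = 3) but 3.67% ± 0.448 in proximal tubule-like cells. In cryopreserved cells it was 69.8% ± 1.01 and 60.1% ± 1.53 in the first of these, close to the fresh values, and 54.7% ± 15.8 in proximal tubule-like cells, where it rested on 32 UMIs of 47 cells (17 of the induced and 15 of the constitutive genes). After methanol fixation it was 58.2% ± 5.77, 47.4% ± 0.358 and 4.63% ± 0.349.

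After warm dissociation the fresh values were 66.6% ± 2.66 in myeloid-like, 59.7% ± 3.79 in endothelial-like and 3.17% ± 0.633 in proximal tubule-like cells, each overlapping the cold-dissociated libraries. In the females the share went from 73.6% ± 2.66 in fresh to 74.6% ± 2.88 in cryopreserved myeloid-like cells and from 65.9% ± 0.374 to 62.8% ± 4.27 in endothelial-like cells. In proximal tubule-like cells it went from 3.68% ± 0.178 to 20.6% ± 5.11 (475 cells), without overlap. Female SN_FANS_3x500g nuclei had 57.7% ± 8.84 in endothelial-like and 4.64% ± 1.33 in proximal tubule-like nuclei. Male proximal tubule-like nuclei had 10.0% ± 1.42 and cells of that class 1.31% ± 0.277. With intronic reads counted in nuclei alone, these shares are again not compared between nuclei and cells.

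**Figure D5:**
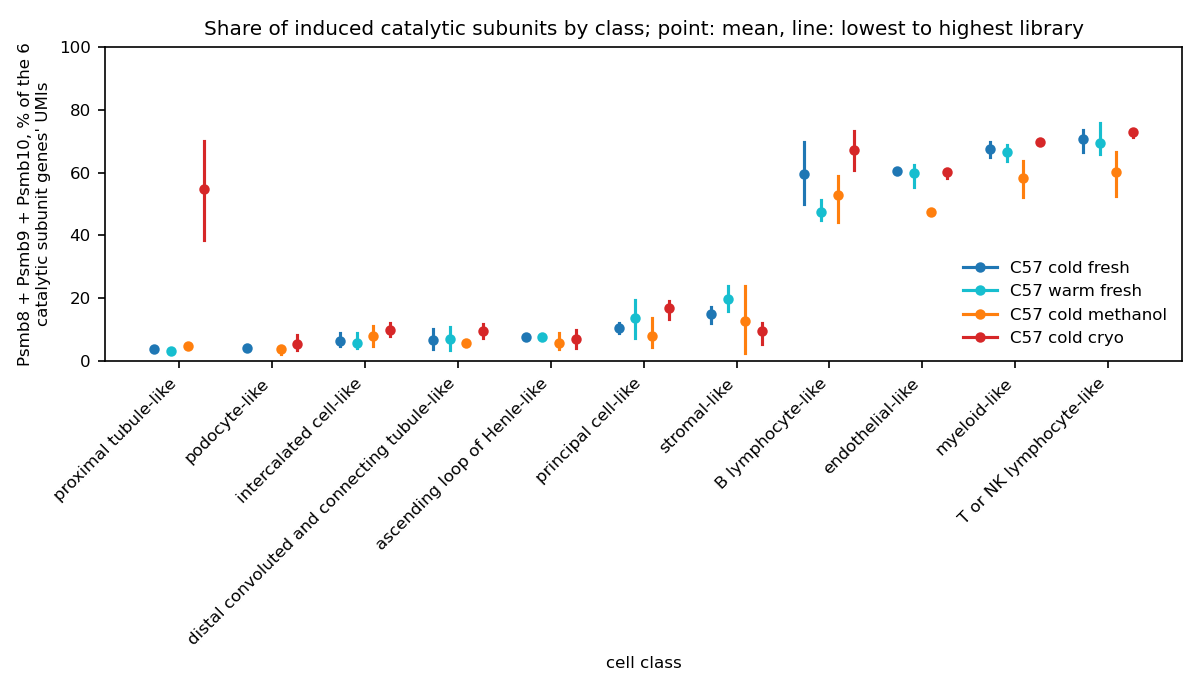
Psmb8, Psmb9 and Psmb10 UMIs as a percentage of the UMIs of the 6 catalytic genes (vertical axis) by cell class (horizontal axis) for fresh cold- and warm-dissociated, methanol-fixed cold-dissociated and cryopreserved cold-dissociated C57BL/6J cells; points are means over libraries and lines run from the lowest to the highest library. Lymphocyte-like, myeloid-like and endothelial-like cells lie high in every group, and proximal tubule-like cells lie low except after cryopreservation.

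Each class was also tested against the proximal tubule-like cells of the same fresh cold-dissociated libraries, with the library as a block. In C57BL/6J, 48 of 469 pairs of member and class were higher and 126 lower (20.7% and 26.4% of all pairs), in Balb/c males 44 of 443 and 68 (17.8% and 22.7%) and in females 50 of 473 and 218 (25.6% and 29.5%). Clustering left the members aside but used other genes, which raises these shares of all genes. The split turned around under total counts, to 121 and 47 (30.4% and 18% of all pairs), 68 and 28 (24.2% and 17.2%), and 169 and 72 (42.1% and 18.6%). These pairs are those that passed the filter on low counts, which kept Psmb9 in 5 of 10 classes of C57BL/6J and Psme2b in 8, 5 and 3 of 10 classes of the 3 experiments. A gene kept only where it is high had to differ, so these counts are a description.

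Psmb8 in C57BL/6J ranged from 509.7 to 559 CPM in myeloid-like and from 11.3 to 13.1 in proximal tubule-like cells of the same libraries, a log2 difference of 5.44 ± 0.20 (SE), adjusted p = 1.41e-164. In endothelial-like cells it ranged from 300.0 to 348 against 13.2 to 15.1 (4.50 ± 0.17 (SE), adjusted p = 1.83e-35). In podocyte-like cells, an epithelial class, it ranged from 0 to 16.5 against 13.5 to 15.3 and did not pass (-0.51 ± 0.51 (SE), adjusted p = 0.408). Psmb8 was also higher in T or NK lymphocyte-like cells (5.54 ± 0.24 (SE), adjusted p = 6.9e-111). Psmb9, kept in 5 classes, ranged from 186 to 238 CPM in myeloid-like (284 UMIs) and from 2.83 to 3.91 in proximal tubule-like cells (41 UMIs), and from 174 to 263 in T or NK lymphocyte-like cells (94 UMIs) against 3.16 to 4.30. In Balb/c males the filter kept Psmb9 in 3 and Psmb8 in 4 of 10 classes, so no fold is given. There Psmb8 ranged from 508 to 853 CPM in myeloid-like (135 UMIs) and from 2.45 to 6.60 in proximal tubule-like cells (13 UMIs), and Psmb9 from 168 to 445 (55 UMIs) and from 0 to 2.45 (3 UMIs). In females Psmb8 and Psmb9 in myeloid-like and Psmb8 in T or NK lymphocyte-like cells led (6.06 ± 0.15 (SE), adjusted p = 3.68e-24, 6.04 ± 0.17 (SE), adjusted p = 3.85e-23 and 5.84 ± 0.17 (SE), adjusted p = 1.12e-33).

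Psme1 was higher than in proximal tubule-like cells in 9 of 10 classes of C57BL/6J, 9 of 10 of Balb/c males and 10 of 10 of females. Psmb10, tested in all 10 classes of C57BL/6J and of females, was higher in 7 and 9 of them, and in males it passed the filter on low counts in 6 classes. Under TMM, Psmb5 was lower in 8, 6 and 10 of 10 classes: in myeloid-like cells of C57BL/6J it ranged from 138 to 145 CPM against 241 to 284 (-0.85 ± 0.18 (SE), adjusted p = 5.66e-06). Psme4 was lower in 10, 2 and 10 of 10 classes, most in B lymphocyte-like (-3.25 ± 0.63 (SE), adjusted p = 1.99e-06), endothelial-like (-2.24 ± 0.27 (SE), adjusted p = 2.86e-11) and podocyte-like cells (-1.87 ± 0.28 (SE), adjusted p = 1.21e-09) of C57BL/6J. In Balb/c males the largest falls among called pairs with UMIs in both classes rested on 1 or 2 UMIs: Psmg1 had 1 UMI in endothelial-like and 2 in ascending loop of Henle-like cells against 103 in proximal tubule-like cells (adjusted p = 0.00716 and 0.0191), and Psmd6 had 2 in T or NK lymphocyte-like cells against 276 (adjusted p = 0.0379). In females they were Psme4 (-2.26 ± 0.44 (SE), adjusted p = 2.04e-05) and Psmd3 (-2.01 ± 0.26 (SE), adjusted p = 3.12e-09) in T or NK lymphocyte-like and Psma4 in thin limb-like cells (-2.08 ± 0.19 (SE), adjusted p = 5.71e-27). The count for C57BL/6J fell from 174 to 115 without BG3 and that for the males from 112 to 68 without MJ04.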

How the data were processed

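Whole-kidney suspensions, nuclei and bulk RNA were profiled in 54 libraries. Per the submitters' processing notes and the study's methods, the authors mapped 10x reads with Cell Ranger 2.1.1 to mm10 and removed empty droplets and barcodes with too few UMIs, too few or too many genes, or a high mitochondrial share. Exonic reads were counted for cells, and exonic and intronic reads for nuclei. Bulk reads were mapped with STAR 2.6.1a to GRCm38 and counted per gene with featureCounts. The deposited values are counts per gene, as UMIs for each barcode or as reads for each bulk library, without normalization. All columns of per-sample values were used.

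UMIs were summed per library, over all barcodes or per class, so that the library is the replicate (n = 3 unless stated). The labels do not say which bulk or Balb/c libraries share an animal. P-values measure the spread between libraries, which edgeR estimates for each gene together with the other genes tested. The very small p-values, as between classes, rest on that sharing and not on 3 libraries of the gene alone. Genes listed in every library of a comparison were filtered with filterByExpr, scaled by TMM and fitted on the 2 groups compared with edgeR 4.0.16 under R 4.3.3, using its quasi-likelihood F test. P-values were adjusted by Benjamini-Hochberg over all genes tested, with a threshold of 0.05. Interactions were fitted on 4 groups without a block. Standard errors are the log2 fold change divided by the root of F. Values per library are CPM scaled by TMM within a comparison, and those in the plots and shares are per total counts. Bulk levels per kb use annotated exon length (GRCm38.p6).

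Barcodes were clustered in 5 sets with scanpy 1.11.5 and leidenalg 0.10.2 (2000 variable genes, 30 components, 20 neighbours, resolution 2). The members, stress, haemoglobin, mitochondrial, ribosomal and sex-linked genes were kept out. A cluster was named when 3 or more markers were found at 1.5-fold over the rest and in a share of 0.1 of its cells, and 96.0% to 99.7% of barcodes kept their name at resolution 1. Doublets, scored against simulated pairs, were marked at 0.8% per 1000 barcodes (2.49% to 6.67%) and kept. Within classes, a library entered with 10 or more cells of the class and a class with 2 or more libraries of each group. One group was down to 2 libraries for stromal-like cells of warm fresh, ascending loop of Henle-like cells of cold cryopreserved, B and T or NK lymphocyte-like cells of warm methanol-fixed and B lymphocyte-like cells of Balb/c male libraries. Each class's p-values were adjusted over all genes of that class. The deposited nuclei files and the male cell files hold no mitochondrial genes, which are 20.2% to 31.7% of UMIs in fresh C57BL/6J cells.

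In simulated data from the fresh warm and cold libraries, a log2 change of 1 was recovered for 73.5% of 189 changed genes among 11653. For cryopreserved against fresh cells after cold dissociation it was 46.1% of 193 among 11040. A member without a call there may therefore still have changed. These shares were not taken for the members alone. Of the simulated calls, 11.4% were false for bulk warm against cold, 5.44% for fresh 10x warm against cold and 7.29% for cryopreservation after cold. For methanol after cold dissociation 10.2% were false, with 9.03% in proximal tubule-like and 3.09% in endothelial-like cells. For female SN_FANS_3x500g nuclei against cells it was 3.75%. In some comparisons calls can thus be false more often than the adjusted p threshold states.

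Always named were Psmb5 to Psmb10, Psme1, Psme2 and Psmd14, and beside them the 5 called members with the largest change each way per comparison, the 3 called pairs of member and class each way, and up to 3 called pathway genes each way of the 38 in 4 lists (antigen presentation, 19S-bound and maturation factors, transcription of proteasome genes, ubiquitin and shuttles). The counts cover all genes tested in these lists, some of which are not reported here by name. The members and lists were chosen with earlier results of these data known. Column headers give C57BL/6J libraries an ID shared between workflows, and the methods say that aliquots of the suspensions were stored, so fresh and stored libraries of the same ID and dissociation were taken as pairs. Their deviations from the group means correlated at 0.235 to 0.246 for methanol after cold, 0.0888 to 0.194 after warm, and at most 0.0820 for cryopreservation. The alternatives were other scalings, no filter, DESeq2 1.42.0, a fold threshold, another clustering resolution, another minimum of cells, doublets left out, genes listed in any library, mitochondrial genes left out before scaling, the block and leaving out each library. The block was added after the data were seen.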

Additional observations from a re-analysis of the deposited data

Results flagged for a closer look

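A difference in the cryopreservation effect between warm and cold dissociation, by an interaction test in edgeR over 4 groups of 3 libraries, was found for 15 members. In each, the log2 fold change of cryopreserved against fresh cells was lower after warm than after cold dissociation. Among the alpha subunits the difference was -0.64 for Psma2 (adjusted p = 0.0178), -0.72 for Psma3 (adjusted p = 0.0202), -0.96 for Psma4 (adjusted p = 0.00992), -0.66 for Psma5 (adjusted p = 0.0341), -1.0 for Psma6 (adjusted p = 0.00884) and -0.62 for Psma7 (adjusted p = 0.00935). Among the beta subunits it was -0.60 for Psmb1 (adjusted p = 0.0143), -0.47 for Psmb2 (adjusted p = 0.0339), -0.40 for Psmb3 (adjusted p = 0.0342) and -0.64 for Psmb5 (adjusted p = 0.0164). In the 19S particle it was -0.70 for the ATPase Psmc4 (adjusted p = 0.0324), -0.93 for Psmd6 (adjusted p = 0.00773) and -0.76 for Psmd7 (adjusted p = 0.0118). The assembly factor Psmg3 gave -0.89 (adjusted p = 0.0142), with most of its exon bases in another annotated gene. Psmc3ip gave -7.78 (adjusted p = 0.00773), a value that depends on the prior count because the warm cryopreserved libraries held none of its UMIs. The fresh libraries of both dissociations enter this difference. Psma3, Psma4, Psma6 and Psmd7 among these members were called higher in fresh warm than in fresh cold cells, while Psmb5 did not pass there. The comparison rests on libraries of C57BL/6J males alone. Proximal tubule-like cells were 0.859% to 1.81% of barcodes in the cold and 1.79% to 4.78% in the warm cryopreserved libraries. In the fresh libraries they were 59.6% to 71.9% (cold) and 72.6% to 75.6% (warm). The part of the fresh values and of these shares in the differences was not tested.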

How the results depend on the processing

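Of 212 values of comparisons under alternatives that left out no library, 161 stayed within 1.5 times the reported count or 1 SD, and of 3248 values of named genes over all alternatives, 2912 kept their direction and their side of the threshold. The cause of the changes below was not tested, except that a fold threshold and a higher minimum of cells keep fewer genes or classes by construction. Fresh Balb/c male cells had the lowest median UMIs per barcode (343 to 688, against 802 to 936.5 in methanol-fixed and 866 to 1610 in C57BL/6J cryopreserved libraries), and their proximal tubule-like cells held few UMIs of the induced subunits. With doublets left out, 61 of 63 values of named genes kept their side of the threshold, and Psmc6 in principal cell-like cells after cold and Psme4 in proximal tubule-like cells after warm methanol fixation lost their calls. With mitochondrial genes left out before scaling, 82 of 84 did, Psmd14 gained a call for cryopreservation after cold dissociation and Psme2 lost that for methanol after warm.

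Scaled by total counts in place of TMM, the members called were 5 for fresh warm against cold, 16 for cryopreserved against fresh after cold dissociation and 19 in the females. Between classes they were 168 in C57BL/6J, 96 in Balb/c males and 241 in females, with more higher than lower where TMM gave more lower. Within classes they were 5 for cryopreservation after cold dissociation, 14 after warm and 15 in the females, and 127 and 35 for methanol after cold and warm. With RLE size factors, the counts within classes were 6 and 13 for cryopreservation after cold and warm. With clustering resolution 1 they were 3 and 9, and with 50 cells per library 2 and 5.

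With a log2 fold change of at least 1, no member was called for intact kidney or for fresh warm against cold, whole or within classes. The counts were then 7 for cryopreservation after cold, 20 after warm and 5 in the females, 2 and 1 for methanol after cold and warm, 1 and 3 for SN_FANS_1x2000g and SN_sucrose against SN_FANS_3x500g, 5 within classes for cryopreservation in the females, 14 and 4 within classes for methanol, and 71, 56 and 79 between classes. The 1 call for intact kidney was lost without a filter (0) and with DESeq2 (0).

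The share of induced subunits taken from Psmb8 and Psmb5 alone was 27.6% in cold and 16.8% in warm fresh C57BL/6J cells, 66.9% and 61.3% after cryopreservation, 18.7% and 13.2% after methanol, and 14.8% and 12.1% in bulk. It was 21.4% in male cells, 17.8% in male nuclei, 15.4% in intact male kidney, 22.3% in female SN_FANS_3x500g nuclei, 21.6% in intact female kidney and 23.1% in the female cold suspension in bulk.

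Single genes changed sign under total counts: Psmb10 for methanol after warm (0.031), Psmb5 and Psmb6 in bulk warm against cold (0.013 and 0.0028), Psmd14 for cryopreservation after cold (0.091) and for SN_FANS_1x2000g, SN_FANS_3x500g and SN_sucrose against cells (0.16, 0.35 and 0.030), and Psme2 for cryopreservation in the females (0.32). With RLE size factors Psme2 turned to 0.078 in the difference of the methanol effects. Psmd14 for SN_FANS_1x2000g and SN_sucrose was a call.

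With the replicate block (the ID shared in the column headers, which pairs stored with fresh aliquots), the counts were 11 for fresh warm against cold, 27 and 48 for cryopreservation after cold and warm, 34 and 18 for methanol after cold and warm, and within classes 7, 6, 13, 103 and 23 in the same order. For methanol after warm dissociation, Psmb10 turned to 0.018, Psmb5 gained a call and Psmd11 lost its call. In proximal tubule-like cells, Psmd3 and Psme4 after cold and Psme4, Psmd10 and Psmg1 after warm cryopreservation, all without UMIs there, lost their calls. After cold methanol fixation Psmb9 gained a call, and the block changed no other call of a named gene. Fresh warm and cold libraries also share an ID, but the labels do not say what it marks, so they were not taken as pairs. Their deviations correlated at 0.175, 0.164 and -0.00831 for libraries of the same ID. These correlations cannot decide whether the libraries share an animal. No paired analysis was possible because neither labels nor headers say which libraries share an animal for bulk, Balb/c male and Balb/c female libraries.

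Leaving out 1 library at a time, the members called ranged from 3 to 21 for fresh warm against cold, 24 to 32 and 46 to 48 for cryopreservation after cold and warm, 36 to 38 in the females, 18 to 32 and 10 to 17 for methanol after cold and warm, and 0 to 1 for intact kidney. For nuclei against cells they ranged from 41 to 43 in males and, in females, from 43 to 43 (SN_FANS_3x500g), 43 to 45 (SN_FANS_1x2000g) and 44 to 45 (SN_sucrose), and between nuclei protocols from 13 to 21 and 25 to 31. For the difference of the cryopreservation effects the range was 9 to 19. Within classes it was 0 to 13 for fresh warm against cold, 0 to 13, 4 to 15 and 18 to 27 for cryopreservation, 32 to 73 and 9 to 20 for methanol, and 174 to 202 and 390 to 394 for nuclei. Between classes it was 115 to 170, 68 to 112 and 217 to 239.

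Named genes without a call whose sign changed when a library was left out were Psmb10 for methanol after cold (-0.19 to 0.020), after warm (-0.12 to 0.030) and in the difference (-0.063 to 0.19). Bulk warm against cold gave -0.095 to 0.080 for Psmb5, -0.035 to 0.0040 for Psmb6, -0.0045 to 0.051 for Psmb7, -0.43 to 0.10 for Psmb9 and -0.038 to 0.11 for Psme1. Intact kidney gave -0.10 to 0.12 for Psmb8, -0.057 to 0.16 for Psmb9 and -0.13 to 0.022 for Psme1. The difference of the cryopreservation effects gave -0.27 to 0.10 for Psmb8, -0.15 to 0.30 for Psmb9 and -0.14 to 0.066 for Psme1. The difference of the methanol effects gave -0.011 to 0.27 for Psmb8, -0.12 to 0.11 for Psmd14 and -0.17 to 0.059 for Psme2. Psme2 for cryopreservation in the females gave -0.11 to 0.0018.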
